A study of Mus musculus with 6 samples.

Results

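The clustered protocadherins are cell-surface adhesion proteins of the cadherin superfamily, encoded by the alpha, beta and gamma gene clusters, which lie in tandem on mouse chromosome 18. They were examined in poly(A) RNA sequencing of primary osteoblasts, cultured from the calvaria of 3-day-old C57BL/6 mice. The members were all genes of the deposited count table whose symbol begins with Pcdha, Pcdhb or Pcdhg followed by a number or by the letter of a subfamily, and 58 of 55471 genes met this rule: 14 alpha, 22 beta and 22 gamma genes. The libraries labelled WT came from wild type mice (3 libraries), and those labelled TCKO from mice with Prx1-Cre in which each of Tet1, Tet2 and Tet3 was floxed on both alleles (fl/fl, 3 libraries). Prx1-Cre is a recombinase active in limb and skull mesenchyme, so cells of other origin in these cultures would keep their Tet genes, which encode the enzymes that oxidise methylated cytosine. Whether a library came from 1 animal or from pooled animals is not given in the sources used here, so p-values measure the spread between libraries, which may be partly technical.

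Each protocadherin promoter in these clusters sits before its own large variable exon, which encodes the whole extracellular part of the protein. In the alpha and gamma clusters the chosen variable exon is spliced to constant exons that all members of the cluster share and that encode the common cytoplasmic end. Beta genes have no constant exons. In neurons each cell uses a few promoters, chosen largely at random, through DNA looping by CTCF and cohesin at promoters whose DNA is not methylated, and the resulting surface combinations let a neuron tell its own branches from those of other cells. The last alpha genes (Pcdhac1, Pcdhac2) and the last gamma genes (Pcdhgc3, Pcdhgc4, Pcdhgc5) form the C-type group, whose use is less random. In bulk RNA such as this, fewer cells using a promoter and less RNA per cell cannot be told apart.

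The libraries held between 8019999 and 10177214 counts. At this depth a count of 0 allows up to 3 counts, or between 0.295 and 0.374 CPM (the count divided by the library's total, times 1000000), and these limits cover counting error only. Tet1 was lower in TCKO (log2 fold change -0.97 ± 0.16, SE, edgeR adjusted p = 0.00648), Tet2 was not distinguishable (-0.14 ± 0.14, adjusted p = 0.545) and Tet3 was higher (0.51 ± 0.09, adjusted p = 0.00745), counted over all exons. With replicates 1 and 2 summed, neither Tet1 (edgeR adjusted p = 0.0797) nor Tet3 (0.0878) passed. Counts over all exons do not single out the floxed exons, so they do not test the deletion, and genotype is taken from the labels. The paper tested the knockout by RT-qPCR in calvarial bones, femurs and livers, and measured Tet1, Tet2 and Tet3 in differentiated osteoblasts of both genotypes. By immunofluorescence it reported more methylated and less hydroxymethylated cytosine in TCKO limb and calvarial bone. Replicates 1 and 2 of each genotype were close, with a median absolute log2 difference of 0.102 per gene in WT and 0.101 in TCKO, while replicate 3 differed from them by 0.198 to 0.204. Xist, which is expressed in female cells, reached 4583 counts in TCKO replicate 3 and at most 4 in the other 5 libraries, and Y-linked Ddx3y was at 0 in that library alone. The replicate 3 libraries thus differ in sex as well as genotype, which cannot be told apart within that pair.

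The shared exons were mapped first, because they decide which part of each gene could be counted. The deposited exon coordinates (GRCm38) placed the alpha cluster at chr18:36930184-37187661, the beta cluster at chr18:37264938-37524479 and the gamma cluster at chr18:37661793-37841873, all on the plus strand. All 14 alpha members contained the same 3 exon blocks of 59, 89 and 2712 bases at the end of the cluster, and all 22 gamma members the same 3 blocks of 59, 89 and 1968 bases. Between 38.9% and 91.4% of the exon length of an alpha member, and between 31.5% and 66.8% of that of a gamma member, was also exon of another gene on the same strand. For beta members the range was 0.00% to 9.67%, since only Pcdhb21 and Pcdhb22 share exon sequence, over 455 bases.

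Over the whole table, every exon base of 1247 genes lay under exons of other genes, and all 1247 had 0 counts in all 6 libraries. Among these were 438 genes covered only by genes of the opposite strand and 736 covered only by genes of the same strand. Reads over shared bases were thus counted for no gene, and the counting took no account of strand, although the library kit marks it. The values below therefore measure mainly the variable exons of alpha and gamma members. Reads from the constant exons, which every promoter choice produces, are missing from all of them. Pcdhgc5 differs, with only 3 deposited exon blocks. The first runs unbroken from its variable exon into the first constant exon. Its 4606 countable bases therefore include sequence that is intron in the other gamma members, and how many of its reads lie there was not tested.

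**Figure D1:**
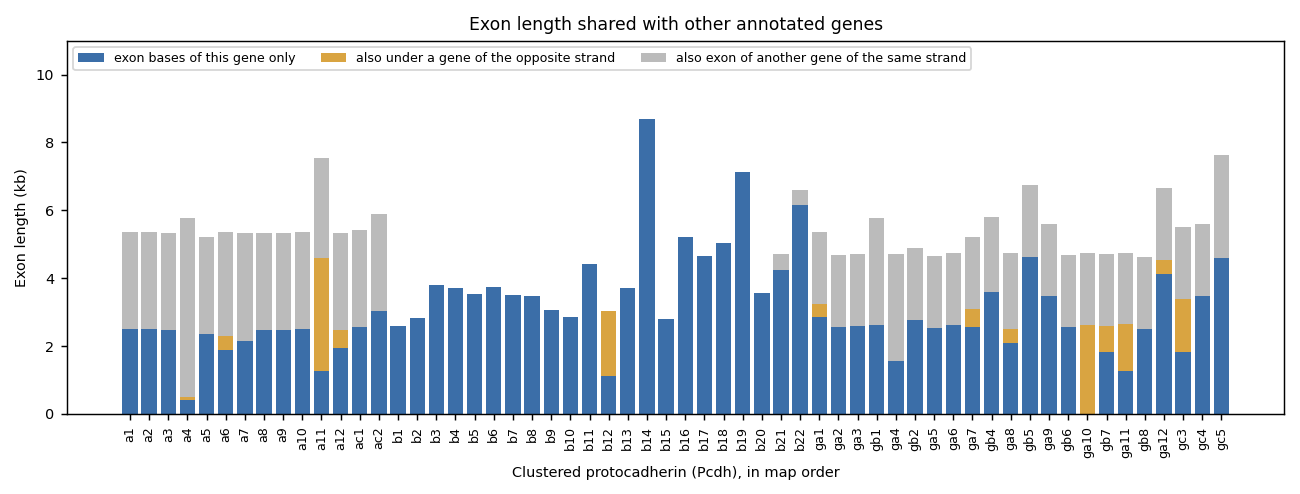
Exon length in kb of each of the 58 clustered protocadherins, in map order from Pcdha1 to Pcdhgc5, split into bases of that gene only, bases also under exons of an opposite-strand gene and bases that are also exon of another gene of the same strand. Beta members consist almost wholly of unshared exon, except Pcdhb12, of which 1927 of 3034 bases lie under an opposite-strand gene. Alpha and gamma members end in shared exons, and Pcdhga10 has 0 unshared bases.

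Pcdhga10 shows what this means for a single member. Its whole variable exon of 2613 bases lies under exons of the antisense transcript Gm26672, it had 0 countable bases, and it had 0 counts in every library, so its expression was not measured. The antisense transcript BC037039 likewise covers 1559 of the 3380 bases of Pcdhgc3 that are free of same-strand neighbours, which left 1821 countable bases. BC037039 itself gave 6, 6 and 4 counts in the WT libraries against 7, 14 and 16 in the TCKO libraries. Sequence repeats were searched in the countable part of the longest transcript of each member, which can leave out countable bases. For Pcdhgc3 this gave 956 windows of 100 bases from 1821 countable bases. Of 55 members with at least 1 such window, 28 had a window that also occurred in a transcript of another gene. The highest share of such windows was 10.7%, in Pcdhgb2.

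The gamma cluster carried most of the signal. Levels per length were compared over the countable length only, in RPKM (CPM per kb), for all members other than Pcdhga10. Pcdhgc3 had the highest level in WT at 43.95 ± 8.56 RPKM (SD, n = 3), far above Pcdhga8 at 8.39 ± 0.857, Pcdhgb6 at 7.91 ± 1.90 and Pcdhgc5 at 6.55 ± 1.01, 3 neighbours in the order whose ranges of 1 SD overlap from each to the next. The highest beta members were Pcdhb22 at 4.74 ± 1.08 RPKM and Pcdhb17 at 4.41 ± 0.885 RPKM, which lie within 1 SD of each other, and the highest alpha member, Pcdhac2, was at 1.24 RPKM. In TCKO, Pcdhgc3 stayed the highest at 84.3 ± 7.14 RPKM and Pcdhgb6 followed at 8.0 ± 0.284 RPKM, while Pcdhga8 moved from rank 2 to rank 7 and Pcdhgc5 from rank 4 to rank 13.

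To compare the genotypes, all genes with sufficient counts were tested together. Of the 58 members, 41 passed the count filter (3 alpha, 17 beta and 21 gamma). At an edgeR adjusted p under 0.05, 2 of these were lower in TCKO, Pcdhb14 and Pcdhga8, and 1 was higher, Pcdhgc3. Over all 13826 tested genes the shares were 8.63% lower and 9.07% higher, and among the 11923 genes with mean counts in the range of the tested members they were 8.28% and 8.38%. In either direction 3 of 41 members were called, where 17.7% of all tested genes were. None of the 41 passed with a fold change over 2 (background 6.35%). By the same fold, 4 members had an unadjusted edgeR p under 0.05 (Pcdhb11, Pcdhb13, Pcdhb15 and Pcdhgc4) and 0 passed under DESeq2. No background was computed for that unadjusted p with the fold. At any fold, 10 members were lower and 2 higher at that unadjusted p (background 16.0% and 16.5%). With the replicate number as a block, 5 members were lower, the 2 named and Pcdhb15, Pcdhb22 and Pcdhgc5 (background 11.5%), and 1 was higher (background 12%). The share of all tested genes that was called changed with the libraries in the fit, and the members' counts are given beside it. With replicates 1 and 2 alone 9 members were lower and 3 higher, where 22.5% and 22.6% of all tested genes were. With replicates 1 and 2 summed into 1 sample per genotype 0 were lower and 0 higher by edgeR (1.22% and 1.57% of all tested genes). In that fit 4 were lower and 2 higher at an unadjusted edgeR p under 0.05, for which no background was computed. Leaving out single libraries gave 0 lower members without WT replicate 1, WT replicate 2 or TCKO replicate 2, where 3.98% to 4.6% of all tested genes were lower, and 1 without TCKO replicate 1 (4.43%). It gave 3 without TCKO replicate 3 (10.1%) and 5 without WT replicate 3 (10.9%).

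**Figure D2:**
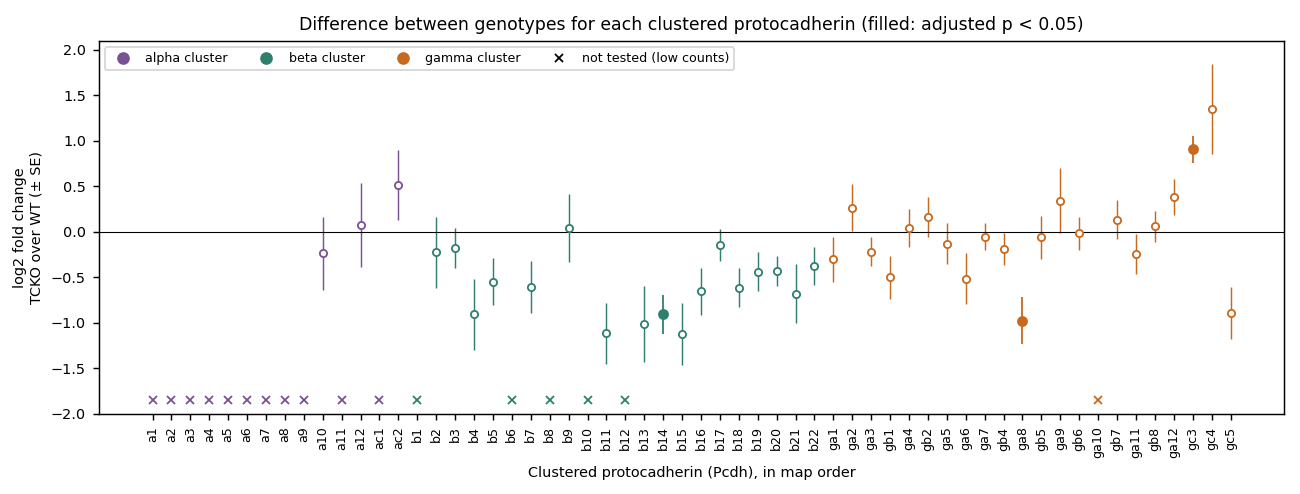
The log2 fold change of TCKO over WT with its SE for each clustered protocadherin in map order, with filled points for an adjusted p under 0.05, open points for other tested members and crosses for members with too few counts to test. Of the 17 tested beta members 16 lie below 0, the gamma A and B members lie on both sides of 0, and Pcdhgc3 and Pcdhgc4 lie above 0 while Pcdhgc5 lies below it.

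Most alpha members gave few or no counts over their countable bases, and reads from the constant exons were not counted. Of its 14 members, 9 had at most 3 counts in every library and 11 were not tested, with 0 to 29 counts summed over the 6 libraries. Pcdha4, Pcdha6 and the C-type gene Pcdhac1 had 0 counts throughout. For Pcdhac1 this was over 2559 countable bases, whereas Pcdha4 had only 404.

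Pcdhac2, the second C-type alpha gene, was the most abundant alpha member, at 42, 39 and 20 counts in the WT libraries (in the order of their replicate numbers, as throughout) against 61, 52 and 26 in the TCKO libraries. Replicate 3 was lowest in both genotypes, and the genotypes overlapped. Its log2 fold change was 0.51 ± 0.38 (SE, edgeR adjusted p = 0.406). With replicates 1 and 2 alone it passed, at 0.60 with an edgeR adjusted p of 0.0251. The other tested alpha members were Pcdha12 and the gene at chr18:37005203-37187657 (ENSMUSG00000007440), whose symbol in the reference table, Pcdha11, is also given to a second gene. It is called Pcdha10 here because its start lies 117 bases from that of RefSeq Pcdha10 in the same build.

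Pcdha10 was counted 15, 28 and 12 times in WT libraries, against 15, 8 and 22 times in TCKO libraries, and its log2 fold change was -0.23 ± 0.40 (edgeR adjusted p = 0.734). Pcdha12 gave 6, 22 and 7 counts in the WT libraries against 14, 10 and 11 in the TCKO libraries, and its log2 fold change was 0.07 ± 0.46 (edgeR adjusted p = 0.935). Standard errors of the 3 tested alpha members ran from 0.38 to 0.46 on the log2 scale. Beta members with similar errors did not pass at -0.91 ± 0.39 (Pcdhb4) and -1.01 ± 0.42 (Pcdhb13), so alpha differences of that size could also be missed. No alpha member was called by edgeR (background 17.7% in either direction) and 0 were called by DESeq2 (background 8.54% lower and 9.11% higher). At an unadjusted edgeR p under 0.05 there were 0 (background 16.0% lower and 16.5% higher). With only 3 tested genes, 0 calls is not far from these shares.

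Beta members leaned in a common direction. Of 17 tested, 16 had a log2 fold change below 0, where 50% of all tested genes did, and their median was -0.61, against 0.00 over all tested genes. In 7 of the 17 every TCKO library was below every WT library (background 16.8%), and in 0 was it above (background 21.7%). At an unadjusted edgeR p under 0.05, 8 were lower (background 16.0%) and 0 higher (background 16.5%), but only Pcdhb14 passed after adjustment over all tested genes. Within replicates 1 and 2 the difference was below 0 for 16 of the 17 members, with a median of -0.41, and within the replicate 3 pair for 14 of them, with a median of -0.47. Neighbouring genes of a cluster and libraries of a genotype are not independent, so these counts describe the cluster and are not a test of it.

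Pcdhb14 (ENSMUSG00000044043, chr18:37447656-37456350) is a gene of a single annotated exon of 8695 bases, the longest of the beta members. It was counted 75, 100 and 54 times in WT libraries, against 35, 41 and 41 times in TCKO libraries, or 8.42 ± 1.71 against 4.6 ± 0.555 CPM (SD, n = 3). The genotypes did not overlap. Its log2 fold change was -0.91 ± 0.21 (SE, edgeR adjusted p = 0.0247). The call was lost without WT replicate 1 (edgeR adjusted p = 0.0939), WT replicate 2 (0.105), TCKO replicate 1 (0.0922) or TCKO replicate 2 (0.0599), and with replicates 1 and 2 summed (0.204). In 15 alternative fits its edgeR or DESeq2 adjusted p lay between 8.6e-06 and 0.204, and its log2 fold change between -1.08 and -0.78.

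Its neighbour Pcdhb15 had the lowest log2 fold change among the tested members, -1.13 ± 0.34, from 23, 33 and 24 counts in the WT libraries against 12, 16 and 7 in the TCKO libraries. The groups did not overlap, and the edgeR adjusted p was 0.0584, or 0.0443 with the replicate block and 0.136 when replicates 1 and 2 were also summed. Pcdhb11 was similar at -1.12 ± 0.34 (edgeR adjusted p = 0.0593) and passed without WT replicate 3 (0.0213). Pcdhb13 (-1.01 ± 0.42, adjusted p = 0.138) and Pcdhb4 (-0.91 ± 0.39, adjusted p = 0.154) had low counts and wider errors. Without WT replicate 3, Pcdhb16 (edgeR adjusted p = 0.0302), Pcdhb19 (0.0337) and Pcdhb22 (0.0469) also passed.

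None of the 3 most abundant beta members passed. Pcdhb22, the last gene of the cluster, gave 273, 341 and 178 counts in the WT libraries against 226, 199 and 160 in the TCKO libraries, and its log2 fold change was -0.38 ± 0.20 (edgeR adjusted p = 0.251). In CPM its replicate 3 was lowest in each genotype, at 21.5 in WT and 18.3 in TCKO, and with the replicate block it passed at -0.37 with an edgeR adjusted p of 0.0313, but not when replicates 1 and 2 were also summed (0.179). Pcdhb17 was counted 196, 229 and 131 times in WT libraries, against 158, 173 and 153 times in TCKO libraries, with overlapping groups, and lay at -0.14 ± 0.17 on the log2 scale (edgeR adjusted p = 0.618). Pcdhb19, the third by level in CPM, gave 94, 121 and 60 counts in the WT libraries against 58, 64 and 73 in the TCKO libraries, at -0.44 ± 0.22 (edgeR adjusted p = 0.211). Between the libraries of replicates 1 and 2 Pcdhb19 differed by -0.66, and between those of replicate 3 by 0.20. Across the 17 tested members, all from the same libraries, Spearman's rho was 0.301 between WT level per kb of exon and log2 fold change and -0.042 between map order and log2 fold change. The only member above 0 was Pcdhb9, at 0.04 ± 0.37. Of the 5 beta members not tested, Pcdhb1, the first gene of the cluster, had 0 counts in every library, and Pcdhb6, Pcdhb8, Pcdhb10 and Pcdhb12 had 12 to 45 counts in all. Only 1107 bases of Pcdhb12 were countable, because 1927 of its 3034 bases lie under the antisense gene Gm37446.

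**Figure D3:**
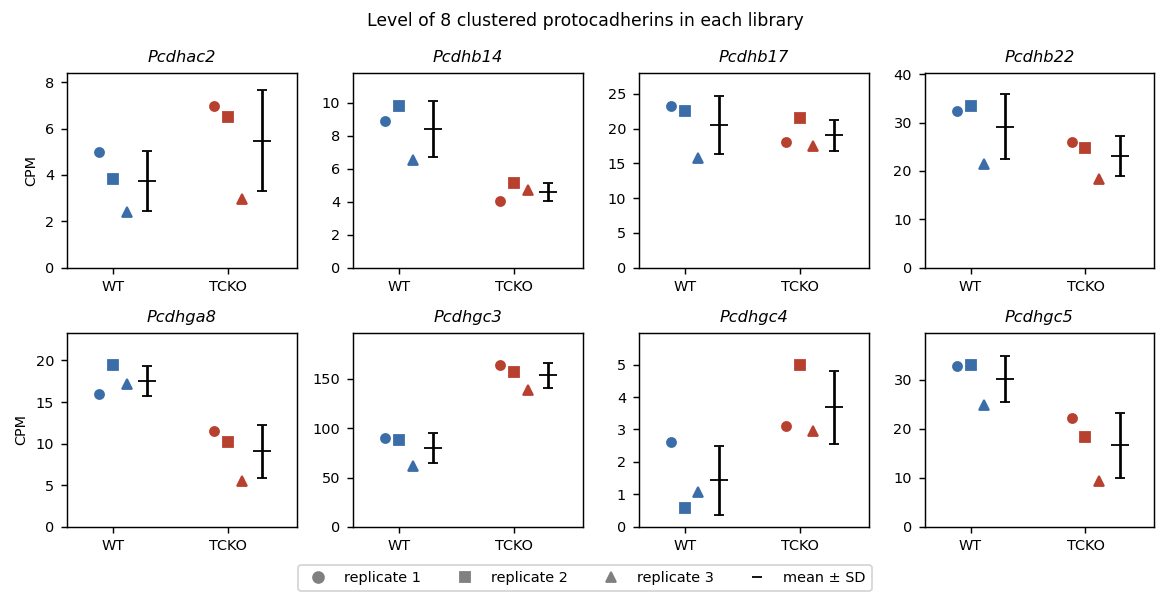
Levels in CPM of 8 clustered protocadherins in each library, with replicates 1, 2 and 3 as circles, squares and triangles and the mean ± SD of each genotype in black. Pcdhgc3 and Pcdhgc4 lie higher in all 3 TCKO libraries than in any WT library, Pcdhb14, Pcdhga8 and Pcdhgc5 lie lower, and Pcdhac2, Pcdhb17 and Pcdhb22 overlap.

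In the gamma cluster A and B genes are interspersed ahead of the C-type genes. Among 11 tested gamma A genes 1 was lower (Pcdhga8, background 8.63%), 7 had a log2 fold change below 0 (background 50%) and the median was -0.13. Within replicates 1 and 2 the difference was below 0 for 8 of them (median -0.20), and within the replicate 3 pair for 3 (median 0.11). Over all 21 tested gamma members it was below 0 for 13 (median -0.13) and for 6 (median 0.15). The common sign of the gamma members thus changed with the replicate. Among 7 gamma B genes the values ran from -0.50 (Pcdhgb1) to 0.17 (Pcdhgb2), with a median of -0.02. None of the gamma B genes passed by edgeR (background 17.7% in either direction) and 0 passed by DESeq2 (background 8.54% lower and 9.11% higher). At an unadjusted edgeR p under 0.05 there were 0 (background 16.0% lower and 16.5% higher). With only 7 genes, 0 calls is not far from these shares. Pcdhgb6, the most abundant of the A and B genes in CPM, was counted 206, 218 and 124 times in WT libraries, against 181, 158 and 185 times in TCKO libraries, and its log2 fold change was -0.02 ± 0.18 (edgeR adjusted p = 0.961).

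Pcdhga8 (ENSMUSG00000103897, chr18:37725706-37841873) lay lowest of the tested gamma A genes on the log2 scale. It gave 134, 198 and 142 counts in the WT libraries against 101, 82 and 48 in the TCKO libraries, or 17.5 ± 1.79 against 9.09 ± 3.20 CPM (SD, n = 3), and the genotypes did not overlap. Its log2 fold change was -0.98 ± 0.26 (edgeR adjusted p = 0.0355). Between the libraries of replicates 1 and 2 it differed by -0.71, and between those of replicate 3 by -1.64. The call was lost without WT replicate 1 (edgeR adjusted p = 0.0874), WT replicate 2 (0.131), WT replicate 3 (0.0512) or TCKO replicate 2 (0.0803), and with replicates 1 and 2 summed (0.177, or 0.0635 with a block added). Its adjusted p lay between 1.2e-05 and 0.177 in the 15 alternative fits. The flanking genes Pcdhgb4 (-0.19 ± 0.17) and Pcdhgb5 (-0.06 ± 0.23) did not pass. In 1.86% of its 100-base windows Pcdhga8 matched another gene's transcript.

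The 3 C-type gamma genes at the end of the cluster did not move together. Pcdhgc3 (ENSMUSG00000102918, chr18:37806364-37841873) was counted 759, 893 and 515 times in WT libraries, against 1433, 1262 and 1219 times in TCKO libraries. Each TCKO library was well above each WT library, and replicate 3 was the lowest of its genotype in CPM. The mean level rose from 80.0 ± 15.6 in WT to 153.5 ± 13.0 CPM in TCKO (SD, n = 3). Its log2 fold change was 0.91 ± 0.15, or 1.88-fold (edgeR adjusted p = 0.00592). It passed in all 6 fits that left out 1 library, with log2 fold changes from 0.75 to 1.01 and edgeR adjusted p-values up to 0.0294, and in 14 of 15 alternatives. The exception was the fit with replicates 1 and 2 summed (0.96, edgeR adjusted p = 0.0831), which passed when a replicate block was added (0.98, adjusted p = 0.0144). Between the libraries of replicates 1 and 2 it differed by 0.86 on the log2 scale, and between those of replicate 3 by 1.16.

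Pcdhgc5 (ENSMUSG00000102543, chr18:37819513-37841873), the last gene of the cluster, gave 275, 336 and 206 counts in the WT libraries against 194, 147 and 82 in the TCKO libraries. All 3 TCKO libraries were below all 3 WT libraries, at 16.6 ± 6.60 against 30.2 ± 4.63 CPM (SD, n = 3). These counts may include reads from the intron bases in its first exon block. Its log2 fold change of -0.89 ± 0.28 did not pass over all tested genes (edgeR adjusted p = 0.0685). It passed with the replicate block (-0.93, edgeR adjusted p = 0.00810), under DESeq2 (adjusted p = 0.0169), without TCKO replicate 3 (-0.59, edgeR adjusted p = 0.0390) and with replicates 1 and 2 summed and blocked (-1.03, edgeR adjusted p = 0.0451). It also passed when all genes with 1 or more counts were kept (-0.89, edgeR adjusted p = 0.00372) and with replicates 1 and 2 alone (-0.72, edgeR adjusted p = 2.8e-08). The other 5 fits that left out 1 library gave adjusted p-values from 0.0551 to 0.202. With replicates 1 and 2 summed and no block it did not pass (edgeR adjusted p = 0.267).

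Pcdhgc4 lies between these 2 genes. It was counted 22, 6 and 9 times in WT libraries, against 27, 40 and 26 times in TCKO libraries, which do not overlap, and its log2 fold change was 1.35 ± 0.50 (edgeR adjusted p = 0.103). WT replicate 1 was the highest WT library, and without it Pcdhgc4 passed at 2.12 with an edgeR adjusted p of 0.0349. Replicates 1 and 2 alone gave 1.37 with an edgeR adjusted p of 0.00109. Pcdhgc4 also passed when all genes with 1 or more counts were kept (1.35, edgeR adjusted p = 0.0325). Without any other single library it did not pass, with edgeR adjusted p-values from 0.0879 to 0.279. Nor did it pass with replicates 1 and 2 summed (0.144).

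The ratio of Pcdhgc3 to Pcdhgc5 counts, a comparison chosen after the values were seen, was 2.76, 2.66 and 2.50 in WT and 7.39, 8.59 and 14.9 in TCKO. WT libraries were nearly alike in this ratio and TCKO libraries spread widely, with TCKO replicate 3 the farthest. Because the ratio is taken within a library, library scaling does not enter it. Reads from the intron bases counted for Pcdhgc5 could enter it.

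The members' levels were then summed by cluster in each library. In WT all 58 members together made up 426.1 ± 71.9 CPM (SD, n = 3), and in TCKO they made up 449.4 ± 46.5. The alpha sum lay between 5.19 and 10.6 CPM in WT and between 7.76 and 11 CPM in TCKO. The beta sum was 127.5, 134.4 and 99.5 CPM in WT and 91.2, 98.8 and 79.6 CPM in TCKO, so that every TCKO library was below every WT library, the narrowest gap lying between WT replicate 3 and TCKO replicate 2. The TCKO mean differed from the WT mean by -25.4%, and the log2 ratio stayed between -0.54 and -0.34 when any library was left out. The gamma sum was 297.6 ± 51.0 in WT and 350.0 ± 36.5 in TCKO, with overlapping libraries.

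Pcdhgc3 accounted for the direction of the gamma sum. Without it the other 21 gamma members held 217.6 ± 35.6 CPM in WT and 196.5 ± 23.6 in TCKO, which turned the log2 ratio from 0.23 to -0.15. Pcdhgc3 made up 27.8%, 26.7% and 26.0% of gamma counts in WT and 43.6%, 43.2% and 45.1% in TCKO. The share was alike in replicates of a genotype, replicate 3 included, although the sums themselves were lower in WT replicate 3 than in the other libraries. Pcdhgc5 made up 10.2 ± 0.206% of gamma counts in WT and 4.65 ± 1.47% in TCKO, and Pcdhga8 6.00 ± 1.14% and 2.55 ± 0.684% (SD, n = 3). These sums and shares rest mainly on variable exons and do not weigh members by countable length.

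**Figure D4:**
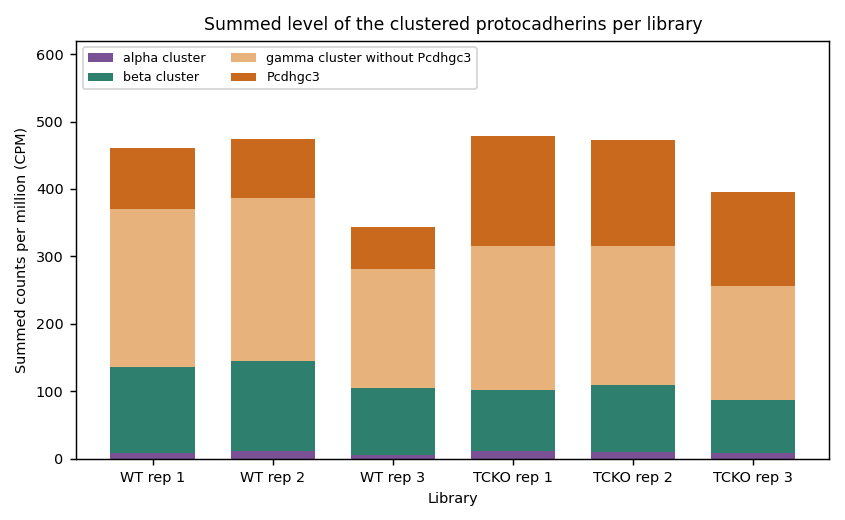
Stacked bars of the summed CPM of all alpha, beta and gamma members in each of the 6 libraries, with Pcdhgc3 drawn apart from the other gamma members. The total lies between 343.4 and 479.0 CPM, the beta part is smaller in each TCKO library than in any WT library, and the Pcdhgc3 part is larger in each TCKO library.

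To set the clustered genes beside their relatives, 12 nonclustered protocadherins, which have their own promoters outside the clusters, were listed. Of the 9 tested, 3 were higher in TCKO at an edgeR adjusted p under 0.05 (background 9.07%) and 0 lower (background 8.63%). All 9 had a log2 fold change above 0, from 0.15 to 4.49, where 50% of all tested genes were below 0. That direction was not shared by all replicates. Pcdh10 gave 100, 115 and 50 counts in WT against 99, 81 and 212 in TCKO, and Pcdh20 99, 76 and 69 against 83, 63 and 170. Both had more counts in TCKO only at replicate 3, where the libraries also differ in sex. Pcdh7, Pcdh17 and Pcdh19 had more at every replicate number. Pcdh19, a delta protocadherin that partners with N-cadherin, gave 1187, 1477 and 1025 counts in the WT libraries against 3765, 2908 and 3469 in the TCKO libraries, and its log2 fold change was 1.51 ± 0.10 (edgeR adjusted p = 0.000127). Pcdh17 was counted 6, 2 and 2 times in WT libraries, against 78, 64 and 85 times in TCKO libraries (4.49 ± 0.37, edgeR adjusted p = 0.000316), and Pcdh7 passed at 0.76 ± 0.13 (edgeR adjusted p = 0.00791). When replicates 1 and 2 were summed, Pcdh19 (0.0135) and Pcdh17 (0.0133) still passed by edgeR and Pcdh7 did not (0.0822).

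Genes known to act on the clusters were then examined. CTCF, cohesin and its loaders and release factors form the looping list, whose 11 genes were all tested. Of these 0 passed by edgeR (background 17.7% in either direction) and 0 by DESeq2, and 2 had an unadjusted edgeR p under 0.05. At that unadjusted p the background was 16.0% lower and 16.5% higher. Ctcf itself gave 532, 595 and 425 counts in the WT libraries against 487, 489 and 506 in the TCKO libraries, and its log2 fold change was -0.02 ± 0.10. The log2 fold changes of the list lay between -0.19 (Stag1) and 0.27 (Rad21), and Rad21, a cohesin subunit gene, passed with the replicate block (edgeR adjusted p = 0.0469). Of 8 genes of silencing complexes that act on the locus or on neuronal genes, 2 were higher (background 9.07%). These were Trim28 (0.37 ± 0.08, edgeR adjusted p = 0.0166) and Ehmt2 (0.25 ± 0.07, 0.0380). Smchd1, a repressor of clustered protocadherins, was at 0.33 ± 0.11 (edgeR adjusted p = 0.0710, or 0.0280 with the replicate block). Of the DNA methylation genes beside the Tet genes, the maintenance methyltransferase gene Dnmt1 (0.46 ± 0.11, edgeR adjusted p = 0.0268) and its recruiting factor Uhrf1 (0.77 ± 0.09, 0.00150) were higher, and Dnmt3a (-0.07 ± 0.14) and Dnmt3b (0.10 ± 0.33) did not pass. With replicates 1 and 2 summed, Trim28 (0.230), Ehmt2 (0.284) and Dnmt1 (0.213) lost their calls and Uhrf1 kept it (0.0453).

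Intracellular partners of protocadherins include the kinases Ptk2 and Ptk2b that bind the constant end and the WAVE complex genes. Among 10 tested genes of this list 0 were called by edgeR (background 17.7%) and 0 by DESeq2. At an unadjusted edgeR p under 0.05 there were 5, where 16.0% of all tested genes were lower and 16.5% higher. Ptk2 passed with the replicate block (0.32 ± 0.10 without the block, edgeR adjusted p = 0.0294 with it).

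Genes around the clusters were tested to see whether the differences reached beyond them. In the window of 1000000 bases on either side and in the gaps between the clusters, 33 of 93 other genes were tested. At an edgeR adjusted p under 0.05, 2 were lower (background 8.63%) and 1 higher (background 9.07%). Their median log2 fold change was -0.05. Taf7, a general transcription factor gene between the beta and gamma clusters, was counted 50, 76 and 69 times in WT libraries, against 54, 60 and 68 times in TCKO libraries (-0.05 ± 0.19). Diaph1, which follows the gamma cluster on the opposite strand, was at 0.06 ± 0.10. The 3 that passed were Cystm1 (1.43 ± 0.28, edgeR adjusted p = 0.0126), Ndufa2 (-0.27 ± 0.08, 0.0446) and Fchsd1 (-0.48 ± 0.13, 0.0368). All 3 lost their calls with replicates 1 and 2 summed (adjusted p from 0.127 to 0.328), and with the replicate block Hbegf also passed (edgeR adjusted p = 0.000711).

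Because clustered protocadherins are best known from neurons, markers of other cell types were read in the same libraries. Beside the counts called below, 8.63% of all tested genes were lower and 9.07% higher. Osteoblast markers summed to 31790 to 32860 CPM in WT and 17870 to 31780 CPM in TCKO, most of it the collagen gene Col1a1, and of 7 tested 3 were lower and 1 higher. Bglap, a marker of mature osteoblasts, had at most 2 counts in any library. Of 12 neuron markers, Elavl3 had 0 counts, Rbfox3 at most 1 and Snap25 at most 3, and 6 were tested, of which 2 were higher in TCKO, Stmn2 (1.78 ± 0.26, edgeR adjusted p = 0.00367) and Gap43 (1.13 ± 0.30, 0.0360). The summed neuron list lay between 79.8 and 93.6 CPM in WT and between 122.0 and 140.8 in TCKO, most of it Tubb3. Schwann cell markers summed to 35.3 to 39.4 CPM in WT and 30.0 to 47.1 in TCKO, with S100b lower and Mbp higher among 5 tested and Sox10 between 3 and 13 counts. Haematopoietic markers summed to 387.6 to 685.7 CPM in WT and 158.6 to 529.3 in TCKO, with 3 of 6 tested lower. Of the endothelial markers only Kdr was tested and it was higher, and Pecam1 had at most 7 counts. With the replicate block, Sp7, Col1a2, Ptprc, Cd68 and Lyz2 were also lower and Syt1 also higher. With replicates 1 and 2 summed, S100b, Mbp and Kdr still passed by edgeR, and the calls of Stmn2 (adjusted p = 0.0697), Gap43 (0.172), Runx2 (0.102), Col1a1 (0.280), Alpl (0.0654), Spp1 (0.123), Csf1r (0.187), Adgre1 (0.0796) and Itgam (0.207) were lost. The part of these cell types in the protocadherin values was not tested.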

How the data were processed

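Poly(A) RNA of 6 libraries was analysed, 3 per genotype. The authors aligned reads to GRCm38 (Ensembl release 99) with STAR 2.7.0e and assigned them to genes by their exons with featureCounts 2.0.0. The deposited values are raw counts, and the deposited gene length adds up its exon bases. Of the columns of sample values 0 were left unassigned, and 0 rows lacked a gene. Symbols came from a table of gene names (55144 genes, 99.4%).

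Shared exon bases were computed from the deposited exon coordinates. CPM used total counts. Counts were tested with edgeR 4.0.16 in R 4.3.3 (filterByExpr, TMM factors, quasi-likelihood test of genotype over all 6 libraries, no covariates), with Benjamini-Hochberg adjustment over 13826 tested genes. Called means an adjusted p under 0.05. Standard errors were derived from the F statistic. Differences within replicates 1 and 2 and within replicate 3 are log2 CPM with 0.5 counts added. Repeated sequence of the longest transcript of each member was searched in GENCODE M21 transcripts of the same build. The count test was tested on simulated data.

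The members, gene lists and named genes were chosen with earlier results of these data known. Named with every library's value were the called members, the 3 most abundant members per cluster and the C-type genes, and other genes where called or where a result turns on them. Other members named singly were chosen after their values were seen.

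Deviations from the genotype mean correlated across genes between the libraries of the same number, at 0.204, 0.214 and 0.347 for replicates 1, 2 and 3, and each passed the limit of 0.1 set for taking the numbers as pairs, so blocked values are given where they change a call. The labels name no shared litter or day, and the replicate 3 block joins libraries that differ in Xist and Ddx3y. WT replicate 2 correlated as much with TCKO replicate 1 (0.225), and WT replicate 1 with TCKO replicate 2 (0.188), so the check separates replicate 3 from the others but not replicates 1 and 2 from each other. Alternatives were RLE or upper-quartile factors, all genes with 1 or more counts, genes with a mean of 50 counts or more, DESeq2 1.42.0, the replicate block, replicates 1 and 2 summed without and with a block, and each library left out. Replicates 1 and 2 alone was chosen after seeing the data. No sequence of these genes is printed, and promoters and proteins were not analysed here.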

Additional observations from a re-analysis of the deposited data

How the results depend on the processing

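The number of members lower in TCKO at an adjusted p under 0.05 was 2 and moved to 5 with the replicate block, 0 with replicates 1 and 2 summed, 1 with the sums and a replicate block and 9 with replicates 1 and 2 only, and ranged from 0 to 5 when a library was left out. Over all tested genes the shares lower were 8.63%, and under these fits 11.5%, 1.22%, 4.09%, 22.5% and 3.98% to 10.9%. The number higher was 1 and moved to 2 without a count filter, 0 with the sums and 3 with replicates 1 and 2 only. It ranged from 1 to 2 when a library was left out. Over all tested genes the shares higher were 9.07%, and under these fits 5.63%, 1.57%, 22.6% and 4.36% to 11.7%. Other scaling factors, the stricter count filter and DESeq2 kept both counts within 1.5 times. The median log2 fold change stayed within the spread between replicates for beta (-0.62 to -0.50 with a library left out) and gamma members (-0.19 to 0.07), and ranged from -0.19 to 0.53 for the 3 alpha members. The log2 ratio of the summed gamma level was 0.23, and -0.15 without Pcdhgc3. Levels per length over the countable instead of the whole exon length rose in WT from 0.636 to 1.24 RPKM for Pcdhac2, from 14.6 to 43.95 for Pcdhgc3 and from 3.96 to 6.55 for Pcdhgc5, by the construction of the measure. Beyond the calls named in the report, the replicate block changed no other call among the members. The fit of replicates 1 and 2 only was chosen after seeing the data and rests on the libraries that differed least from each other. Low counts limit the alpha members most.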
